A study of Mus musculus with 12 samples.

Results

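The comparison set naive CD4 T cells labelled as high for a Nur77-GFP reporter and Ly6C negative (population D) against cells labelled as intermediate for the reporter and Ly6C negative (population C). Its members are the 3 libraries of D and the 3 of C, chosen by their labels, which makes 6 of the 12 libraries of the series. Each population was sorted from spleen and lymph nodes of mice numbered 1 to 3, and a library is called here by its letter and mouse number, so that D2 is population D of mouse 2. All mice were untreated, on a C57/BL6 background, and carried both the Tg(Nr4a1-EGFP)GY139Gsat transgene and the Foxp3tm1Flv mutation. Their age was not given in the sources used here. All sorted cells were CD4 positive, negative for the Foxp3-RFP reporter and low in CD44, and none had been given a T cell receptor (TCR) stimulus. The other populations, A and B, were labelled Ly6C positive, with low GFP in A and intermediate GFP in B.

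Naive CD4 T cells meet self-peptides on MHC class II in lymphoid organs and receive weak TCR signals from them. Nr4a1, which encodes Nur77, is an immediate early gene of TCR signalling, and the transgene places GFP under its regulatory sequence, so GFP marks cells that signalled recently. Ly6C is a surface protein that naive CD4 T cells with stronger self-reactivity carry at lower levels. Sustained TCR signals without costimulation are known to induce a programme called anergy, in which inhibitory receptors and intracellular brakes limit the response. D against C therefore asks which genes differ between the upper GFP gates among cells sorted as Ly6C negative.

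Values are RPKM, in which a read count is scaled by gene length in kilobases and by the depth of the library in M reads (M for mega). The depth behind them was 6.82 (C3) to 9.07 (C1) M reads in these libraries, as recovered from the values. Of 10073 genes listed, 10025 averaged 0.5 RPKM or more across the 6 libraries and were tested. The test was limma on log2(RPKM + 0.5), with Benjamini-Hochberg adjustment over all tested genes, and a gene was called at an adjusted p under 0.05. Differences are given on that log2 scale, D minus C, ± the standard error, and they understate the change of genes with low levels. In bulk libraries, fewer cells that express a gene and less RNA per cell cannot be told apart.

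The sort itself was checked first. Nr4a1 was at 26.3, 28.3 and 23.4 RPKM in C1, C2 and C3 and at 58.7, 64.7 and 67.8 RPKM in D1, D2 and D3. All D libraries lay above all C libraries, a 2.45-fold difference in the mean of log2 RPKM (two-sided exact permutation test, p = 0.1, the smallest p that 20 arrangements allow). This check covers C and D only, and whether Nr4a1 followed the GFP labels of A and B was not tested. A1 and B1 stood apart from the rest of their populations for Nr4a1, as they did for Eomes and Myb (given below). For Eomes, A2 and A3 lay with C, and B2 and B3, labelled intermediate as C was, lay with D. The check therefore does not show that the transcript followed the GFP labels across the series. Ly6c1, which encodes a Ly6C protein, was at 67.0, 66.7 and 59.3 RPKM in C and at 44.5, 48.4 and 38.2 RPKM in D. It was thus lower in each D library than in any C library (0.677-fold, exact permutation p = 0.1), although both gates were labelled negative for the protein. In the populations labelled Ly6C positive, Ly6c1 was at 58.1 to 72.6 RPKM in A, which overlapped C, and at 37.1 to 50.2 RPKM in B, which overlapped D. Ly6c2, the neighbouring Ly6C gene, was not analysed here. The labels of C and D are therefore used as names of gates, and the Ly6c1 transcript did not separate Ly6C-negative from Ly6C-positive labels.

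Cd4 was at 224 to 250 RPKM in all 6 libraries (-0.09 ± 0.05, adjusted p = 0.39 by limma). Cd44, the gate for antigen-experienced cells, was at 6.41 to 7.38 RPKM in 5 libraries and at 12.8 RPKM in C3. Foxp3, the master factor of regulatory T cells, was at 1.38, 1.45 and 1.27 RPKM in C and at 3.77, 3.25 and 3.99 RPKM in D (1.16 ± 0.11, adjusted p = 0.00074 by limma), in cells sorted as negative for its reporter. Foxp3 was therefore present at a low level in every library and higher in D.

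The library C3 stood apart from the other 5. Jchain, the joining chain of secreted antibodies, was at 709 RPKM in C3 and at most 2.33 RPKM elsewhere, and Cd74, the MHC class II invariant chain, at 209 against at most 19.7 RPKM. Mki67, a marker of dividing cells, was at 17.0 against at most 3.26 RPKM. The listed plasma cell markers (7 of 15 looked for) summed to 1217 RPKM in C3 and to 116 to 128 RPKM in the others, and B cell and MHC class II markers (4 of 23) to 264.5 against 23.3 to 43.3 RPKM. These genes were not called between D and C, and each list count of 2 or more below is also given without C3 where that moved it by over 1.5 times. The part of these cells in other differences was not tested.

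**Figure D1:**
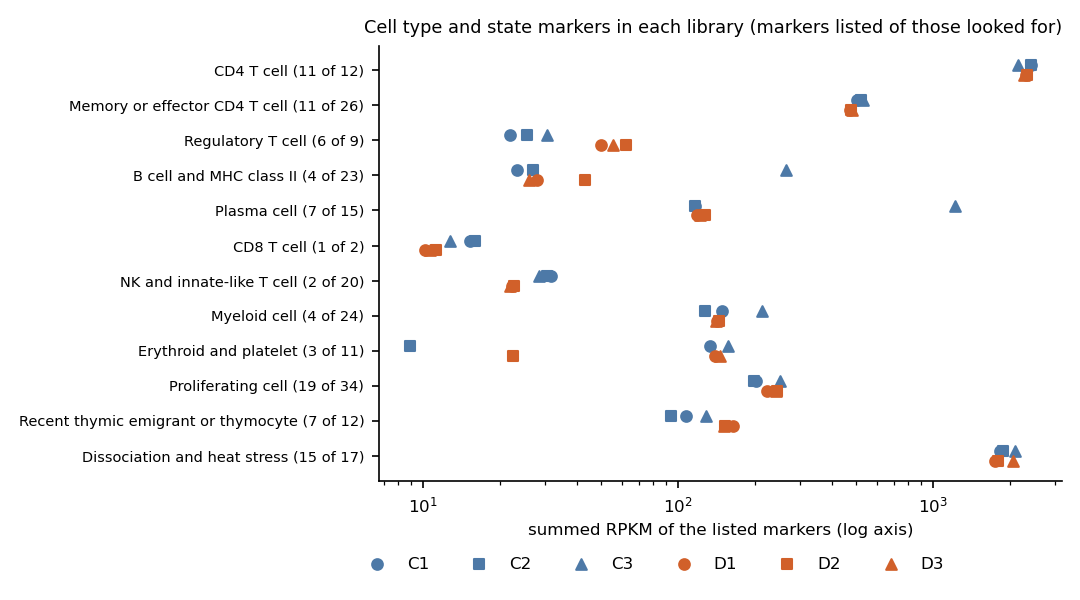
Summed RPKM (horizontal log axis) of the listed markers of 12 cell types or states, 1 point per library, blue for C and orange for D, with the shape giving the mouse. C3 lies far to the right for plasma cell and B cell markers (1217 and 264.5 RPKM), and the D libraries lie right of all C libraries for regulatory T cell markers (49.7 to 62.2 against 21.97 to 30.7 RPKM).

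In all, 481 genes were called: 336 were higher in D (3.35% of those tested) and 145 were lower (1.45%). The genes higher in D changed more and were less abundant. Their median difference was 0.62, 86 differed by at least 1 on the log2 scale, and their median level was 6.39 RPKM in C and 11 RPKM in D. The genes lower in D had a median difference of -0.36, 1 of them fell by at least 1, and their median level was 32 RPKM in C and 26.2 RPKM in D. Groups did not overlap for 1413 genes higher in D (14.1%) and 991 lower (9.89%), and each called gene was among these. Genes without overlap necessarily have the same sign in all 3 same-numbered pairs. Just inside the threshold were Litaf and Ddx43 (adjusted p = 0.04915 and 0.04927), and just outside were Vasn and Cep97 (both 0.05024). Without C3 the count was 650, with 317 of the 336 higher and 130 of the 145 lower genes still called. Without C2, D1, D2 or D3 it was 268, 238, 198 and 211, and 153 higher and 27 lower genes were called whichever 1 of the 6 libraries was left out. Of the 116 called genes that were due to be named, 64 kept the call without each library in turn, among them all 55 with an adjusted p under 0.005. The other 52, whose adjusted p was 0.0073 or more, lost it without at least 1 library.

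**Figure D2:**
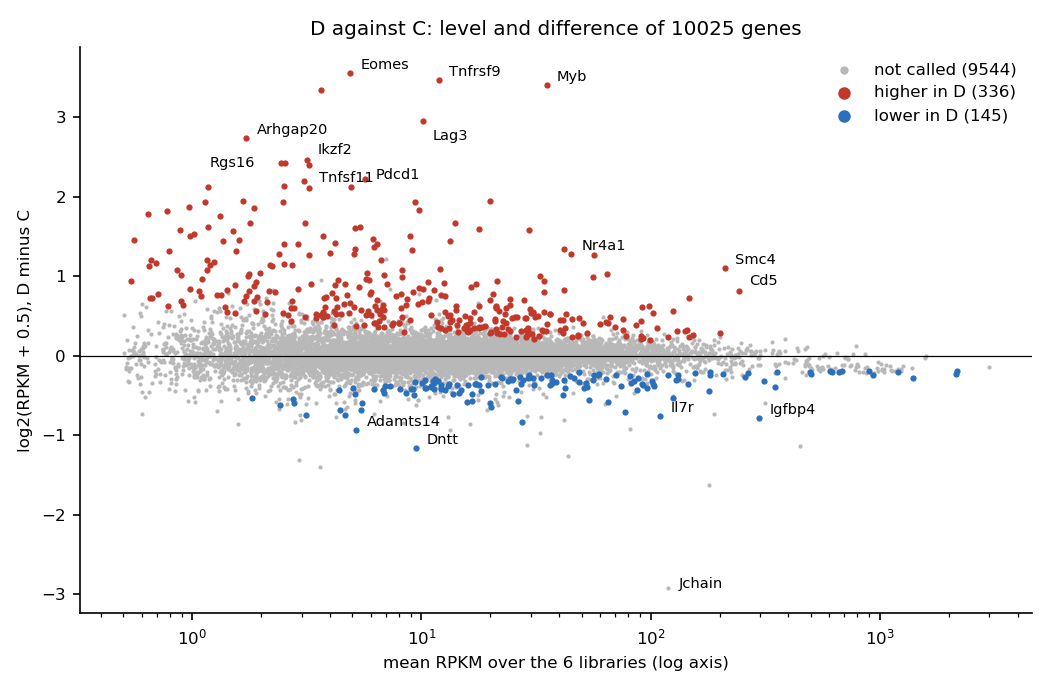
Mean RPKM over the 6 libraries (horizontal log axis) and log2(RPKM + 0.5) difference, D minus C (vertical axis), for 10025 genes, coloured where called. The red points (336, higher in D) spread to 3.56 for Eomes and the blue points (145, lower) reach -1.16 for Dntt, while Jchain, high in C3 alone, was not called.

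Transcription factors of T cell fate included some of the genes that differed most. Eomes encodes a T-box factor of memory and effector T cells. It was at 0.475, 0.338 and 0.218 RPKM in C and at 9.30, 8.73 and 10.2 RPKM in D, or 49 reads against 1443 in all (3.56 ± 0.13, adjusted p = 8.1e-06 by limma). Eomes rested on few reads in every C library and was readily measured in every D library. Myb, a factor that maintains progenitors and self-renewing T cells, was at 5.48, 6.28 and 5.25 RPKM in C and at 61.5, 63.0 and 69.6 RPKM in D (3.40 ± 0.08, adjusted p = 5.4e-07 by limma). The groups did not come near each other, and Myb had the smallest p of all genes.

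Ikzf2, which encodes Helios, was at 0.568, 0.686 and 0.612 RPKM in C and at 5.98, 5.43 and 5.69 RPKM in D (2.47 ± 0.10). Its relative Ikzf4 (Eos) rose from 2.12 to 2.42 RPKM in C to 7.38 to 8.497 RPKM in D (1.61 ± 0.09). Helios and Eos are Ikaros-family factors known from regulatory and chronically stimulated T cells. Sox4, a factor of early lymphocyte development, differed by 1.83 ± 0.11, with 3.28 to 4.56 RPKM in C and 15.3 to 15.9 RPKM in D. Maf, a factor of follicular helper cells, differed by 1.40 ± 0.10. Of 45 transcription factors of T cell fate that were tested, 14 were higher and 1 was lower, with a median difference of 0.12 beside 0.013 for all tested genes (15 and 2 with the mouse number as a block). The one that fell was Runx3, a factor of CD8 T cell identity, at 22.7 to 24.5 RPKM in C and 17.5 to 19.96 RPKM in D (-0.35 ± 0.07, adjusted p = 0.026 by limma). The naive-cell factors Tcf7 (0.08), Lef1 (-0.02) and Bach2 (0.16) did not pass the test.

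**Figure D3:**
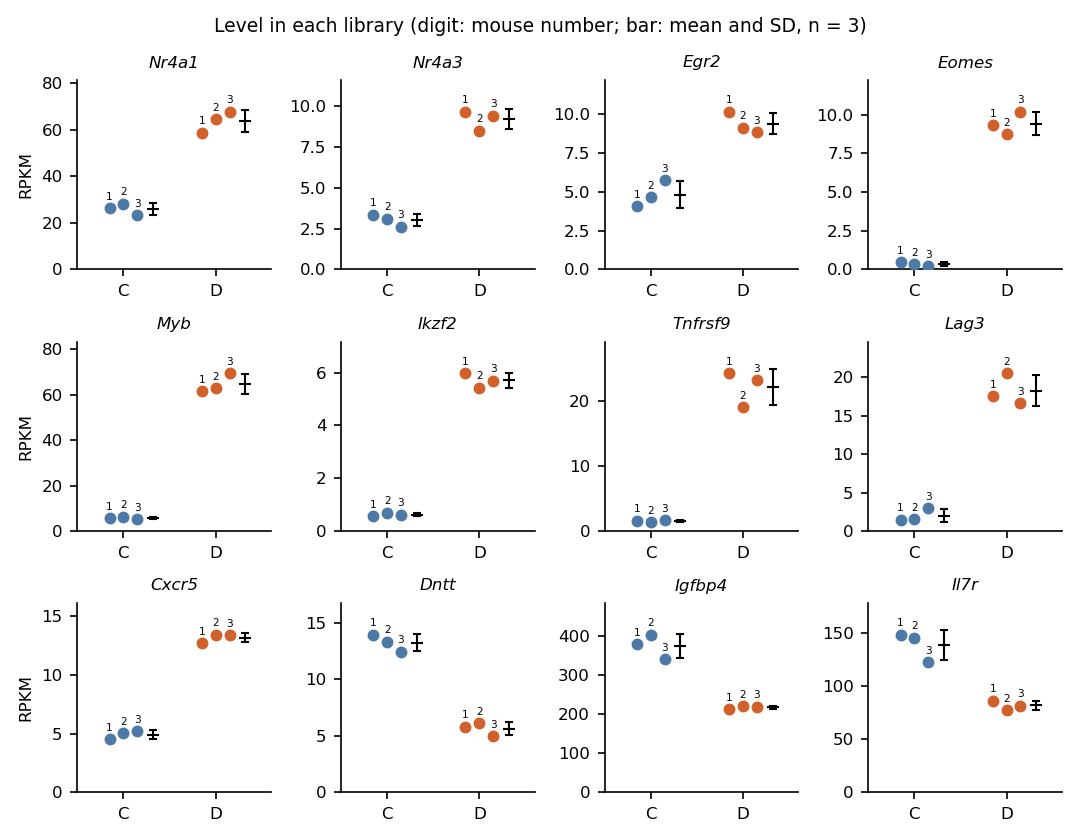
RPKM of 12 genes (vertical axes from 0) in each library of C and D, with the digit giving the mouse and bars the mean and SD of 3 libraries. In every panel the D points lie entirely above or, for Dntt, Igfbp4 and Il7r, entirely below the C points.

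The immediate early factors of the NR4A family and the EGR family, with their corepressors Nab1 and Nab2, are direct readouts of TCR signalling. Of 8 tested, 6 were higher in D and 0 lower, with a median of 0.73. Since the gate used an Nr4a1 reporter, Nr4a1 itself (1.28 ± 0.08, adjusted p = 9.7e-05 by limma) checks the sort and is no independent member. Nr4a3 was at 3.36, 3.11 and 2.62 RPKM in C and at 9.68, 8.51 and 9.43 RPKM in D (1.46 ± 0.10, adjusted p = 0.00016 by limma), so that it changed about as much as Nr4a1. Nr4a2 was lower in abundance, at 0.249 to 0.298 RPKM in C and 1.52 to 2.18 RPKM in D (1.54 ± 0.15).

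Among the EGR factors, Egr2 was at 4.05, 4.66 and 5.73 RPKM in C and at 10.2, 9.12 and 8.85 RPKM in D (0.90 ± 0.12, adjusted p = 0.0042 by limma). Egr3 rose less, from 9.77 to 10.4 RPKM in C to 14.3 to 15.9 RPKM in D (0.55 ± 0.07), and Nab2 likewise (0.54 ± 0.08). Egr1 (0.25) and Nab1 (-0.05) did not pass the test; without C3, 7 of the 8 were higher.

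Nr4a1 and Egr2 are shown with the signal-responsive elements before their start sites, since both rose here. The sequences are the 120 bases before a RefSeq start (build GRCm38.p6, plus strand, positions counted back from the start), outside the exons that GENCODE M21 gives these genes. Egr2 has several RefSeq starts with other matches, and the window shown was picked, after the matches were seen, as the one outside exons with the most of them. For Nr4a1 (chr15:101266726-101266845) the capitals mark a match to the EGR motif GCGNGGGCG on the other strand, at -60 to -52. For Egr2 (chr10:67537749-67537868) they mark a CArG box, the element that serum response factor binds, at -72 to -63, and the core of a cyclic AMP response element, TGACGT on the other strand, at -56 to -51.
Nr4a1: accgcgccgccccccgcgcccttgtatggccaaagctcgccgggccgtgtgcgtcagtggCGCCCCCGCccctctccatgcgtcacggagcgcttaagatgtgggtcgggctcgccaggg
Egr2: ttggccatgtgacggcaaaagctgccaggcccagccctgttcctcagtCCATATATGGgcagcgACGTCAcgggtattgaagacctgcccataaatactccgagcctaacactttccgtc

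Over the 250 bases before the start, on both strands, RefSeq windows were found for 254 of the 336 higher and 100 of the 145 lower genes and for 8145 of all tested genes. A gene was counted once if any of its windows matched, so genes with several starts had more chances to match. The EGR motif GCGNGGGCG was found for 16.5% of higher genes, 12.0% of lower genes, 10.4% of tested genes and 5.33% of all 27025 genes with a window. The AP-1 motif TGANTCA was in 7.48%, 4.0%, 4.8% and 7.82% of them in the same order, and the element core TGACGT in 9.45%, 7.0%, 12.6% and 7.29%. The NBRE AAAGGTCA, to which NR4A proteins bind as monomers, was in 2.36%, 0.0%, 1.1% and 1.55%. The CArG box was in 1.18%, 0.0%, 1.25% and 1.62%, and the NF-kB motif in 13.8%, 17.0%, 10.5% and 8.23%. These shares are descriptions with no test, and 1 window can hold several of these motifs. No match says only that the letters are not in the window searched.

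Of 33 tested AP-1 members and other fast early genes, 5 were higher (15.2%, against 3.35% of all tested genes) and 1 lower, with a median of 0.07. The genes that rose encode feedback regulators: Spry1, an inhibitor of Ras signalling (2.13 ± 0.15, 0.449 to 0.838 RPKM in C and 3.96 to 4.75 RPKM in D), the MAP kinase phosphatases Dusp4 (1.45 ± 0.25) and Dusp6 (0.43 ± 0.06), and the mRNA-decay factor Zfp36l1 (0.26 ± 0.05). Rel, an NF-kB subunit, was also higher (0.36 ± 0.08, adjusted p = 0.042 by limma). Cd40lg, the helper ligand for B cells, was lower, at 104 to 105 RPKM in C and 75.4 to 84.5 RPKM in D (-0.37 ± 0.05). The AP-1 genes Fos (-0.02), Jun (-0.30), Junb (-0.26) and Jund (-0.30) did not pass the test. Without C3, 9 members were higher, and with the mouse number as a block 4 were lower.

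Of 35 tested genes of the TCR complex and its proximal signalling, 3 were higher (8.6%, against 3.35% of all tested genes) and 2 lower (5.7%, against 1.45%), with a median of 0.03. Nfatc1, the calcium-responsive factor, was at 24.4 to 25.1 RPKM in C and 34.4 to 39.6 RPKM in D (0.54 ± 0.06, adjusted p = 0.0023 by limma), and the kinase Fyn differed by 0.31 ± 0.06. The adaptor Grap2 (-0.24 ± 0.05) and the calcineurin subunit Ppp3ca (-0.50 ± 0.11) were lower. Cd3e (0.01), Lck (0.06) and Zap70 (0.26) did not pass. With the mouse number as a block, 7 were higher and 2 lower.

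Inhibitory receptors were among the genes that differed most. Of 14 tested, 7 were higher and 1 lower, with a median of 0.74 (7 and 2 with the mouse number as a block). Lag3, which binds MHC class II, was at 1.49, 1.53 and 3.00 RPKM in C and at 17.5, 20.5 and 16.6 RPKM in D (2.95 ± 0.21, adjusted p = 0.00015 by limma). C3 held the highest Lag3 of the C libraries and still lay far below D. Pdcd1, which encodes PD-1, was at 1.77, 1.74 and 1.52 RPKM in C and at 8.54, 10.4 and 10.2 RPKM in D (2.23 ± 0.11, adjusted p = 1.9e-05 by limma). Cd200, a ligand that restrains myeloid cells, rose from 3.15 to 4.29 RPKM in C to 14.6 to 15.9 RPKM in D (1.93 ± 0.11).

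Cd5, a brake on TCR signalling whose surface level is known to follow self-reactivity, was abundant in both groups. It was at 173, 190 and 165 RPKM in C and at 299, 309 and 322 RPKM in D (0.81 ± 0.06, adjusted p = 0.00017 by limma), a 1.76-fold difference with no overlap. Its paralogue Cd6 rose in parallel, from 103 to 120 RPKM in C to 175 to 193 RPKM in D (0.72 ± 0.07). The collagen receptor Lair1 moved against the list, at 2.56 to 3.61 RPKM in C and 1.64 to 2.02 RPKM in D (-0.62 ± 0.14, adjusted p = 0.039 by limma). Tigit (0.95) and Btla (0.05) did not pass.

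Intracellular brakes of TCR signalling split. Of 47 tested, 10 were higher (21.3%, against 3.35% of all tested genes) and 3 lower (6.4%, against 1.45%), with a median of 0.08. Besides Spry1, the diacylglycerol kinase Dgkz rose from 97.4 to 107 RPKM in C to 140 to 157 RPKM in D (0.57 ± 0.06, adjusted p = 0.0011 by limma). The phosphatase Ptpn22 (0.36 ± 0.04), the Ras GTPase activator Rasa1 (0.49 ± 0.06), the ubiquitin ligase Cblb (0.36 ± 0.05) and the phosphatase Ubash3b (0.75 ± 0.12) were also higher. The 3 that fell were the cytokine-signal suppressor Socs3 (-0.43 ± 0.06), at 92.7 to 106 RPKM in C and 73.0 to 76.3 RPKM in D, and the adaptors Sla2 (-0.37 ± 0.06) and Sit1 (-0.40 ± 0.07). Ptpn6 (-0.00), Csk (-0.02) and Cbl (0.11) did not pass.

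Most genes associated with anergy were higher. Of 28 tested, 20 were higher (71.4%, against 3.35% of all tested genes) and 0 lower, with a median of 0.69, and without C3 it was also 20 and 0. The list shares genes with the lists above (NR4A and EGR factors, Pdcd1, Lag3, Cblb, Dgkz and Nfatc1), so it is no separate evidence. All lists were chosen with earlier results of these data known, so their shares are descriptions and no test of the lists. Members not yet given include Izumo1r, the folate receptor 4 of anergic and regulatory T cells, at 22.6, 25.5 and 21.8 RPKM in C and at 54.8, 65.5 and 60.1 RPKM in D (1.35 ± 0.08, adjusted p = 7.4e-05 by limma). Nt5e, the ectoenzyme CD73 that makes adenosine, rose from 6.32 to 8.44 RPKM in C to 15.1 to 17.6 RPKM in D (1.09 ± 0.11). Every D library exceeded every C library for both. Dgka (-0.04), Itch (0.04) and Dtx1 (-0.14), also tied to anergy, did not pass.

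The TNF receptor superfamily held a receptor that differed more than nearly all genes. Tnfrsf9, the costimulatory receptor 4-1BB, was at 1.59, 1.38 and 1.65 RPKM in C and at 24.3, 19.1 and 23.2 RPKM in D (3.47 ± 0.11, adjusted p = 2.8e-06 by limma). Tnfsf11, which encodes the ligand RANKL, was at 0.987, 0.522 and 0.591 RPKM in C and at 5.11, 6.14 and 5.99 RPKM in D (2.40 ± 0.16). Both were low in all C libraries and clearly measured in all D libraries. OX40 (Tnfrsf4, 0.82 ± 0.08) and GITR (Tnfrsf18, 0.35 ± 0.06) were also higher, and Cd40lg was the lower member. Of 22 tested, 4 were higher and 1 lower, with a median of 0.08, and Cd27 (0.09) and Fas (0.30) did not pass.

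Many genes of T follicular helper cells, which help B cells in follicles, were higher. Of 23 tested, 15 were higher and 1 lower, with a median of 0.77 (17 and 1 without C3). Bcl6, their lineage factor, was at 6.85, 6.66 and 7.28 RPKM in C and at 18.8, 20.7 and 19.9 RPKM in D (1.45 ± 0.07, adjusted p = 1.9e-05 by limma). Cxcr5, the receptor that leads cells into follicles, was at 4.52, 5.04 and 5.24 RPKM in C and at 12.7, 13.5 and 13.4 RPKM in D (1.34 ± 0.08). The spread within each group was small beside the gap for both. Il6st, the shared IL-6 receptor chain gp130, rose from 71.0 to 75.9 RPKM in C to 110 to 113 RPKM in D (0.61 ± 0.05), whereas Il6ra, the chain that binds IL-6, fell from 105 to 119 RPKM in C to 86.9 to 92.3 RPKM in D (-0.32 ± 0.06, adjusted p = 0.018 by limma). Tcf7 (0.08) and Batf (0.17) did not pass.

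Genes of regulatory T cells were higher in D in 11 of 16 tested, with 0 lower and a median of 0.99 (12 and 1 without C3). Most are shared with lists above: Ikzf2, Ikzf4, Izumo1r, Nt5e and the TNF receptors. Beside this, a marker list of regulatory T cells (6 of 9 markers listed) was summed. Its level was 21.97 to 30.7 RPKM in C and 49.7 to 62.2 RPKM in D, and 5 of the 6 tested were higher. This marker list shares members with the list above, such as Ikzf2, so it is no separate evidence. Much of the gap in the sum was Ctla4, at a mean of 8.79 RPKM in C and 27.0 RPKM in D. The cells were sorted as Foxp3-RFP negative, and the part of remaining reporter-negative regulatory T cells in these differences was not tested. Gpr83, a receptor found on such cells, was at 2.50 to 3.08 RPKM in C and 4.79 to 6.65 RPKM in D (0.89 ± 0.13), while Capg (-0.02) and Nrp1 (0.32) did not pass.

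**Figure D4:**
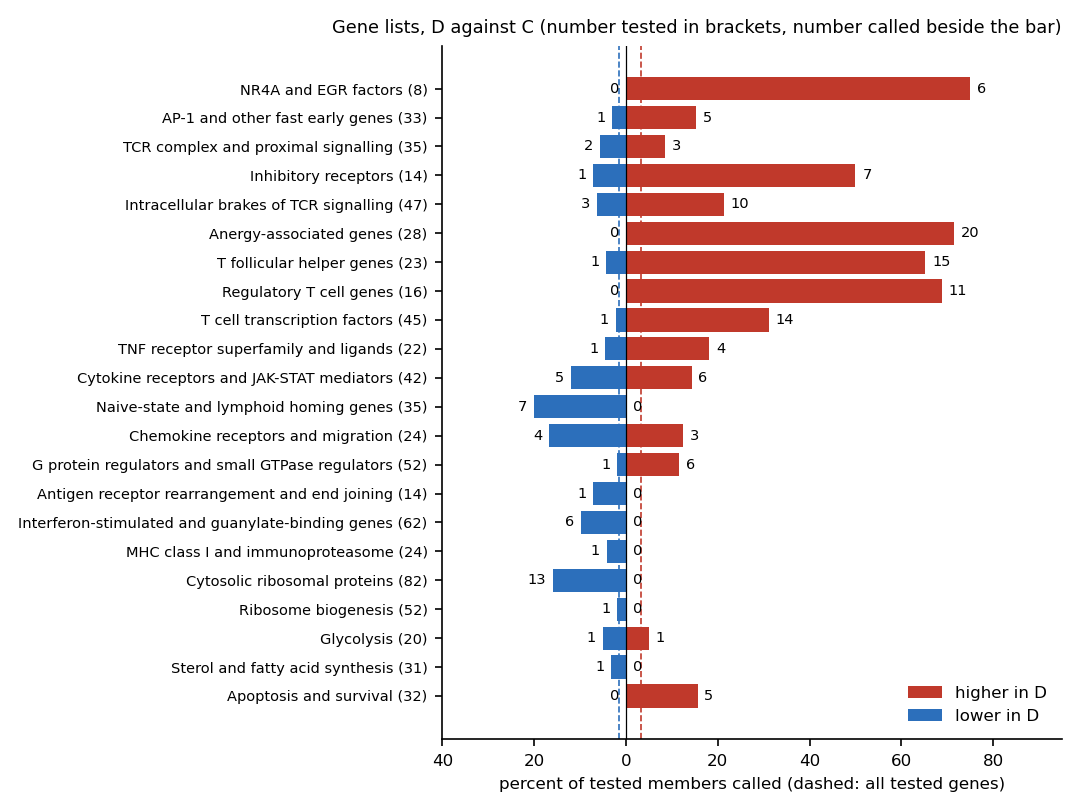
Percent of the tested members of 22 gene lists that were higher (right, red) or lower (left, blue) in D, with the counts beside the bars and dashed lines at the share of all tested genes (3.35% higher and 1.45% lower). The bars reach furthest right for the NR4A and EGR list (6 of 8), anergy (20 of 28) and regulatory T cell genes (11 of 16), and furthest left for naive-state genes (7 of 35). The lists were chosen with earlier results of these data known.

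Cytokine receptors moved in opposite directions. Il2rb, the signalling chain shared by the IL-2 and IL-15 receptors, was at 8.47, 8.17 and 7.02 RPKM in C and at 30.9, 34.6 and 30.3 RPKM in D (1.95 ± 0.09, adjusted p = 1.6e-05 by limma). Il7r, the receptor for the survival cytokine IL-7, was at 148, 146 and 123 RPKM in C and at 86.2, 77.5 and 81.7 RPKM in D (-0.76 ± 0.08, adjusted p = 0.00097 by limma). The ratio of mean RPKM, D over C, was 4.05 for Il2rb and 0.588 for Il7r, neither with overlap. Jak2 (0.53 ± 0.07) was also higher, and Il18r1 (-0.58 ± 0.10) and Il4ra (-0.24 ± 0.05) were lower. Of 42 receptors and JAK-STAT mediators tested, 6 were higher and 5 lower, and the shared gamma chain Il2rg (-0.10) did not pass.

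Among 35 genes of the naive state and of lymphoid homing, 7 were lower in D and 0 higher, with a median of -0.06 (10 lower without C3 and 10 with the mouse number as a block). Igfbp4, an insulin-like growth factor binding protein abundant in naive T cells, was at 380, 405 and 342 RPKM in C and at 214, 220 and 220 RPKM in D (-0.78 ± 0.06, adjusted p = 0.00027 by limma). The D libraries lay close together and well below C. Arl4c (-0.44 ± 0.05), Gramd3 (-0.34 ± 0.06), Treml2 (-0.33 ± 0.05) and the integrin chain Itgb7 (-0.27 ± 0.05) fell less, and Il7r and Ly6c1 are the other members that were lower. Ccr7 (-0.14), the lymph node homing receptor, S1pr1 (-0.05), the egress receptor, and Klf2 (-0.21), their regulator, did not pass.

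Migration genes split as well. Of 24 tested, 3 were higher (12.5%, against 3.35% of all tested genes) and 4 lower (16.7%, against 1.45%), with a median of 0.05. Besides Cxcr5, both chains of the integrin LFA-1 were higher, Itgal (0.33 ± 0.06) and Itgb2 (0.29 ± 0.05). The LFA-1 ligand Icam1 (-0.47 ± 0.10), the selectin ligand Selplg (-0.26 ± 0.05), Itgb3 (-0.30 ± 0.06) and Itgb7 were lower.

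Regulators of G proteins and small GTPases included 6 higher and 1 lower of 52 tested, with a median of 0.03. Arhgap20, a GTPase activator, was at 0.046, 0.041 and 0.123 RPKM in C and at 3.83, 2.42 and 3.85 RPKM in D, which rests on 11 reads in C and 612 in D (2.74 ± 0.18, adjusted p = 0.0001 by limma). Rgs16, which shortens chemokine receptor signals, was at 0.189, 0.499 and 0.565 RPKM in C and at 3.35, 4.24 and 5.73 RPKM in D (2.43 ± 0.22). Few reads in C set the precision of both ratios, and the groups were far apart. Rgs10 (0.62 ± 0.06), Rgs3 (0.69 ± 0.08), Arhgap18 (0.96 ± 0.10) and Vav2 (0.74 ± 0.12) were also higher, and Arhgef11 was lower (-0.32 ± 0.07, adjusted p = 0.056 without C3, by limma).

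The largest increases outside these lists were in genes of varied function. Cldn10, a tight junction claudin (2.43 ± 0.21, 21 reads in C and 221 in D), Phactr2, a phosphatase and actin regulator (2.19 ± 0.10), Itga9, an integrin chain (2.13 ± 0.16), Itih5 (2.13 ± 0.12) and Lad1 (2.11 ± 0.14) all lay without overlap above C. The predicted gene Gm4956, left out of the named genes for its symbol and named after its value was seen, differed by 3.35.

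Dntt was the single called gene that fell by more than 1 on the log2 scale. It encodes terminal transferase, the enzyme that adds untemplated bases to antigen receptor joints in the thymus. Its level was 13.98, 13.3 and 12.5 RPKM in C and 5.82, 6.16 and 4.98 RPKM in D (-1.16 ± 0.09, adjusted p = 0.00027 by limma), so D held 0.426-fold the level of C with a wide gap. It was the 1 of 14 rearrangement and end joining genes that was called (7.1% lower, beside 1.45% of all tested genes). The joining factors Xrcc4 (0.04), Lig4 (-0.07) and Prkdc (0.00) did not pass. Of 7 tested markers of thymocytes and recent thymic emigrants, Sox4 and Itm2a (1.26) were higher, Dntt was lower and 4 were not called. These are 28.6% higher and 14.3% lower, beside 3.35% and 1.45% of all tested genes.

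The next largest decreases were in Adamts14, a procollagen protease, at 6.79 to 7.24 RPKM in C and 3.20 to 3.76 RPKM in D (-0.93 ± 0.09, adjusted p = 0.00074 by limma), and in Pdlim4, an actin-binding adaptor, at 32.8 to 38.0 RPKM in C and 17.1 to 22.4 RPKM in D (-0.83 ± 0.10). Nacc2 (-0.75 ± 0.11), Lrrc75b (-0.68 ± 0.08), the transporter Slc16a5 (-0.60 ± 0.07), the Rab regulator Tbc1d16 (-0.59 ± 0.08) and the myosin Myo6 (-0.59 ± 0.11) followed. Snord104, a small nucleolar RNA gene listed with RPKM (-0.71 ± 0.16), is uncertain in libraries of polyadenylated RNA, and its adjusted p was 0.2 once the trend with GC content and length was removed.

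Of 62 tested interferon-stimulated and guanylate-binding genes, 6 were lower (9.7%, against 1.45% of all tested genes) and 0 higher, with a median of -0.01. Ly6a, which encodes Sca-1, was at 74.6, 67.4 and 93.3 RPKM in C and at 50.6, 54.3 and 50.2 RPKM in D (-0.58 ± 0.11, adjusted p = 0.019 by limma). Gbp11 (-0.68 ± 0.15), Ifi30 (-0.64 ± 0.14), Oas2 (-0.48 ± 0.11), Tgtp1 (-0.38 ± 0.08) and Gbp2 (-0.24 ± 0.05) were lower too, while Ifit1 (0.09), Irf7 (-0.06) and Isg15 (0.38) did not pass. With the mouse number as a block, 7 were higher and 8 lower. Reads of the near-identical Ly6, guanylate-binding and Tgtp genes may have been split by the authors' counting.

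Some ribosomal protein genes were lower by a small amount. Of 82 tested, 13 were lower and 0 higher, with a median of -0.17, and all 82 had a lower fitted level in D. Rps16 (-0.25 ± 0.05), Rplp1 (-0.28 ± 0.06), Rpl5 (-0.20 ± 0.04) and Rpl36a (-0.23 ± 0.05) were among them. Their count and size moved with the scaling: 2 were called and the median was -0.03 with quantile normalization, where Rps7 (-0.19 ± 0.04) changed sign, 6 were called without C3, and 47 with the mouse number as a block. Ribosome biogenesis genes had 1 of 52 lower (Rrp12, -0.29 ± 0.06, and 0 without C3), and MHC class I and immunoproteasome genes 1 of 24 (Psmb9, -0.25 ± 0.06, and 0 without C3). These single calls are 1.9% and 4.2%, beside 1.45% of all tested genes.

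Metabolic genes were counted too. Of 20 glycolysis genes, Pfkfb3, which raises glycolytic flux, was higher (0.35 ± 0.07) and Pdk1, which holds pyruvate from the mitochondria, was lower (-0.34 ± 0.06). These single calls are 5.0% each way, beside 3.35% higher and 1.45% lower of all tested genes. They are values of the genes and no result about glycolysis. With the mouse number as a block 3 were higher and 1 lower. Of 31 sterol and fatty acid synthesis genes, Mvd alone was lower (-0.40 ± 0.08), or 3.2% against 1.45% of all tested genes, and 0 were higher.

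Survival and death genes had 5 of 32 higher (15.6%, against 3.35% of all tested genes) and 0 lower, with a median of 0.05. Bcl2a1d, an antiapoptotic BCL2 relative, rose from 1.80 to 2.21 RPKM in C to 6.08 to 6.75 RPKM in D (1.42 ± 0.10, adjusted p = 0.00017 by limma), and its near-identical paralogue Bcl2a1b by 0.92 ± 0.18. Reads of such close copies may have been split by the counting. The proapoptotic Bcl2l11, which encodes Bim, was at 6.15 to 7.7 RPKM in C and 9.36 to 10.02 RPKM in D (0.49 ± 0.09), and Casp6 (0.37 ± 0.07) was higher. Bcl2 (-0.15) and Mcl1 (-0.09) did not pass.

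Markers of other cell types and states were counted in the same way. Of 11 tested memory or effector markers, Il2rb was higher and Vim (-0.38), Crip1 (-0.36) and Il18r1 were lower (27.3%, against 1.45% of all tested genes), and their sum was 501 to 530 RPKM in C and 471 to 480 RPKM in D. The CD8 T cell marker Cd8b1 (-0.44) and the perforin gene Prf1 (-0.43) were lower. Of 19 proliferation markers, Stmn1 (0.70) and Mcm3 (0.30) were higher and Kif23 (-0.55) was lower. These shares, 10.5% and 5.3%, stand beside 3.35% and 1.45% of all tested genes. The counts were 8 higher and 1 lower without C3, and 4 higher and 1 lower with the mouse number as a block. Of 15 dissociation and heat stress genes, 0 were called in either direction, and 3 were lower with the mouse number as a block.

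The other step of the series allows D minus C to be set beside B minus A. No gene passed a test of the difference between these steps in a limma fit of all 12 libraries (0 of 10021, smallest adjusted p = 0.168, with 1507 genes at an unadjusted p under 0.05), and 0 did without A1 and B1. For Eomes, B2 and B3 were at 10.5 and 9.25 RPKM, as in D, and A2 and A3 at 0.298 and 0.315 RPKM, as in C. A1, at 7.62 RPKM, and B1, at 0.829 RPKM, lay on the other side from the rest of their populations. The same held for Myb, at 58.7 RPKM in A1 and 6.44 RPKM in B1, but not for Dntt, at 13.98 RPKM in A1 and 7.91 RPKM in B1. A1 and B1, labelled mouse 1, also had a low sum of haemoglobin and platelet transcripts (10.7 and 23.1 RPKM). C2 and D2 were near them (8.88 and 22.5 RPKM), and C1 and D1 were not (133.6 and 139.3 RPKM). All libraries were used as labelled, in these fits and in the block, and whether any population label or mouse number was exchanged was not tested. When all 12 libraries set the spread, D against C gave 1 call, Dntt. With A1 and B1 left out of that fit, an alternative added after seeing the data, it gave 506 higher and 259 lower.

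**Figure D5:**
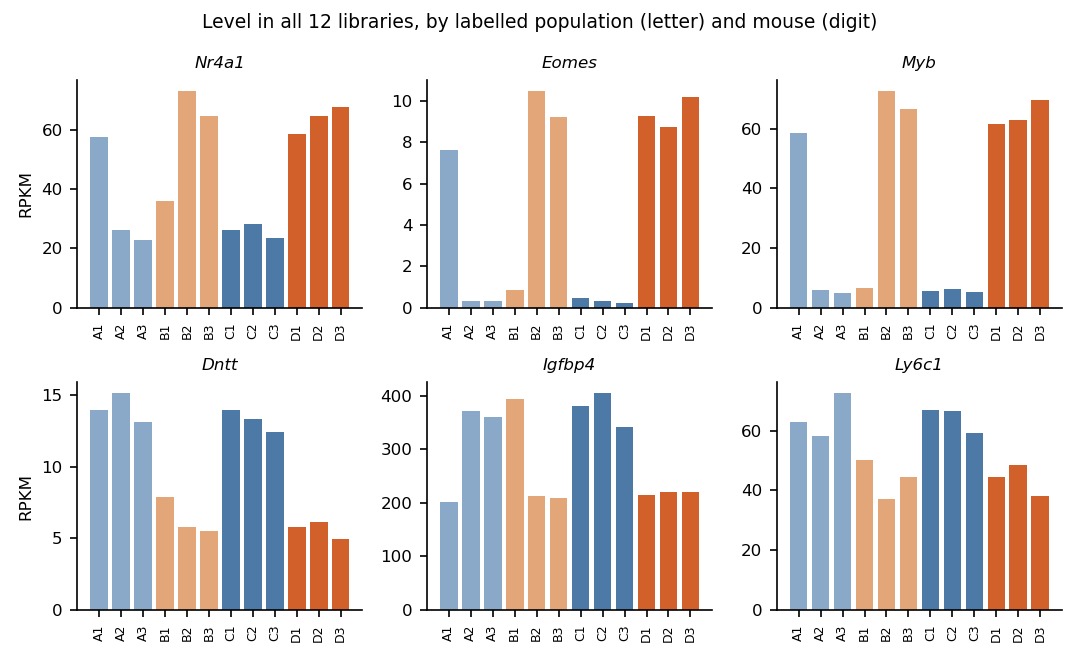
RPKM of 6 genes (vertical axes from 0) in all 12 libraries, by labelled population and mouse. The C and D bars repeat the pattern of A2 and A3 and of B2 and B3, and A1 and B1 stand apart from their populations for Eomes and Myb (7.62 and 0.829 RPKM, 58.7 and 6.44 RPKM).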

How the data were processed

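Per the labels' protocols, cDNA of sorted cells came from the SMART-seq v4 kit, and NexteraXT made the libraries. STAR and the builds mm9 and mm10 are named without roles in the submitters' processing notes; no source used here gives the counting tool, annotation or strand use. The authors deposited RPKM values for 10073 genes (3 without a symbol), with gene lengths. RPKM times length times depth gave whole reads, within 0.1, for 100.0% of values examined, which gave the depths. Limma-voom on these reads, an alternative, called 603 genes.

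The 3 D and 3 C libraries were fitted in limma 3.58.1 (R 4.3.3), using a mean-variance trend and no block. The fit used log2(RPKM + 0.5), for genes averaging 0.5 RPKM or more. On simulated data it recovered 52 of 100 changes of 0.5 and 92 of 100 changes of 1, with 9 false calls. A gene not called may therefore still differ by 0.5. Mean log2 RPKM of Nr4a1 and Ly6c1 was compared by exact permutation in Python 3.11.15 (scipy 1.17.1). The labels give mouse numbers, so same-numbered libraries are stated to share an animal; across genes, deviations from the population means correlated at 0.378, 0.066 and 0.08 for them and at -0.236 to 0.115 for other C and D pairs. P-values of the main fit measure the spread between the 3 libraries within each gate, moderated across genes. Neither the main fit nor the permutation test used the pairing of C and D by mouse number.

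The comparison and the 34 gene lists (22 pathway, 12 marker) were chosen with earlier results of these data known. Genes named are the sort checks, the 15 largest changes each way at 2 RPKM or more without predicted-gene or clone symbols, and up to 6 called members of each list by smallest p with those moving against it; a few due under this rule are not reported here. Gm4956, Jchain, Cd74, Mki67, threshold neighbours and members given as not passing were chosen after their values were seen. Removing the GC content and length trend, the block without C3, and the fit without A1 and B1 were added after seeing the data. Promoter sequences are from RefSeq (GRCm38.p6).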

Additional observations from a re-analysis of the deposited data

How the results depend on the processing

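The count of 481 genes (336 higher, 145 lower) stayed within 1.5 times, in total and in each direction, under both other pseudocounts, no filter, median rescaling, quantile normalization, robust moderation and limma-voom. The mouse number as a replicate block gave 636 genes (419 higher and 217 lower). A filter of 5 RPKM, which tests fewer genes, gave 207 higher. The fit of all 12 libraries gave 1 gene in total, 0 higher and 1 lower, and without A1 and B1 765 (506 and 259). Without the trend 87 were lower, and with the GC content and length trend removed 218 were lower, for which the cause was not tested. The replicate block without C3 gave 750 genes, 284 of them lower. Leaving out 1 library at a time gave 198 to 650 genes, 163 to 447 higher and 35 to 203 lower, and the total and lower counts fell by more than 1.5 times without C2, D1, D2 or D3, the higher count without D1, D2 or D3. Of 116 named genes that were called, the block kept the call of 116, leaving out C3 of 112 and no trend of 87. Only Rps7 reversed among named genes, to 0.0005 with quantile normalization. The difference between steps gave 0 genes in every setting tried, and Nr4a1 (1.22 to 1.36) and Ly6c1 (-0.64 to -0.47) kept their direction with 1 library left out. Genes with few reads in C, such as Arhgap20, have ratios limited by depth.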

Other observations

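Some called genes came next to each other in the order of tested genes, and genes not tested can lie between them. In the RefSeq gene order, 49 pairs of adjacent tested genes were both called, 34 with both higher, 4 with both lower and 11 with opposite signs, a description with no test and no chance level. Beside Lag3 (2.95), Ptms, which encodes parathymosin, was higher (1.00). Ikzf4 (1.61) was followed by Suox (0.51) and Rab5b (0.23), and Ift80 (1.58) by the condensin gene Smc4 (1.11) and Trim59 (0.53). Between Cd5 (0.81) and Cd6 (0.72) lay A430093F15Rik (1.67). The 2 TNF receptor genes Tnfrsf4 and Tnfrsf18 are adjacent in this order, as are Gpr83 (0.89) and Izumo1r (1.35), 15025 bases apart. On the lower side Ly6a (-0.58) and Ly6c1 (-0.56) are adjacent in it, 45987 bases apart. Bcl9l (-0.28) and Cxcr5 (1.34) overlap and moved in opposite directions. Strand use in counting is not stated, so reads of overlapping genes cannot be told apart. These pairs were chosen after their values were seen.

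Haemoglobin and platelet transcripts set apart other libraries than the gates did. Their sum (Hba-a2, Hbb-bs and Itga2b) was 8.88 RPKM in C2, 22.5 in D2, 10.7 in A1 and 23.1 in B1, and 133.6 to 176.9 RPKM in the other 8 libraries.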
